A study of Arabidopsis thaliana with 20 samples.

Results

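The 123 array features described here each stand for 1 Arabidopsis thaliana gene. Their mean log2 intensity was lower in plants labelled hcf145 than in wild-type plants (WT). They were chosen from 627 features that were annotated with exactly 1 gene and had at least 8 intensities above 0 in each group. Intensities were taken to log2 and quantile normalised over the 20 arrays, and a feature was taken when its mean was at least 1.5-fold lower in hcf145 than in WT. Of the 137 features past this cutoff (21.9% of the 627), 14 were left out by name. Among them were PSAN, of photosystem I, and CRR21, of a family that acts on organelle RNA. Over all features tested, with any number of annotated genes, 19.8% were past the cutoff. The cutoff uses the difference between hcf145 and WT, so that difference is given below as a description and not as a test.

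The samples were total RNA of 10 arrays labelled hcf145 and 10 labelled WT, both of the ecotype Wassilevskija. The labels call hcf145 a mutant with a defect in building photosystem I, but the source names of the same samples give gun5, which is another mutant, so directions below follow the titles. No age, tissue, growth condition or plant number is given, and neither HCF145 (AT5G08720) nor CHLH (AT5G13630, the gene of gun5) was the sole gene of any feature (0 features each), so the labels could not be checked.

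The hcf mutants are a class of plants with high chlorophyll fluorescence, because light energy that reaches the photosynthetic complexes is not passed on. HCF145 is a nuclear gene whose product is needed for the chloroplast transcript that encodes the core of photosystem I. Most chloroplast proteins are encoded in the nucleus and imported, including envelope transporters, the enzymes of pigment and lipid synthesis, and the RNA-binding proteins that process chloroplast transcripts.

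Deposited intensities, which have no stated unit, summed to between 3319 and 3640 per array, and exact zeros numbered 120 to 248 on hcf145 arrays and 125 to 150 on WT arrays. Every one of the 20 arrays resembled its adjacent number (1 with 2, 3 with 4, and so on) most closely within its group, with a consensus correlation of 0.66, so the arrays behaved as 5 pairs per group. A feature is called here when its limma adjusted p over all 3287 features tested is under 0.05. Calls on the 20 arrays and on the 5 against 5 averages of adjacent arrays are both given, and p-values on the 20 arrays are too small. The number of arrays limits the precision of every value, and nothing in the labels ties an array to a plant.

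The members ranged from -1.74 to -0.59 on the log2 scale (hcf145 minus WT), with a median of -0.78, against a median of -0.04 over the 627 features of the same kind and -0.05 over all features tested. Among them, 31 were at least 2-fold lower in hcf145 and 92 lay between 1.5-fold and 2-fold. The members just inside the cutoff were AT5G63830 (-0.60), AT5G39980 (-0.59) and AT5G06930 (-0.59), and the features just outside it were AT5G01860 (-0.58), APS4 (-0.58) and AT2G14660 (-0.58). AT5G63830 was at -0.23 without hcf145 array 2. Limma called 76 members lower on the 20 arrays, where 15.9% of all features were called lower. On the averages of adjacent arrays it called 17 members lower, where 3.83% of all features were. Among the 627 features the shares called lower were 17.4% on the 20 arrays and 3.51% on the averages. Nothing is read from these counts, since the same difference chose the members. In bulk samples such as these, fewer cells of a type and less RNA per cell cannot be told apart.

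Intensities of different features are not compared as transcript levels, since each feature has its own response. The members' mean intensity had a median of 0.263 in hcf145 and 0.529 in WT, against 0.377 in hcf145 and 0.457 in WT for the 627 features. In WT, 59 members had a mean intensity under 0.5 and 13 had one of 2 or more. Exact zeros occurred in 21 members on hcf145 arrays (28 values) and in 3 members on WT arrays (4 values), and the log2 differences leave these values out.

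**Figure D1:**
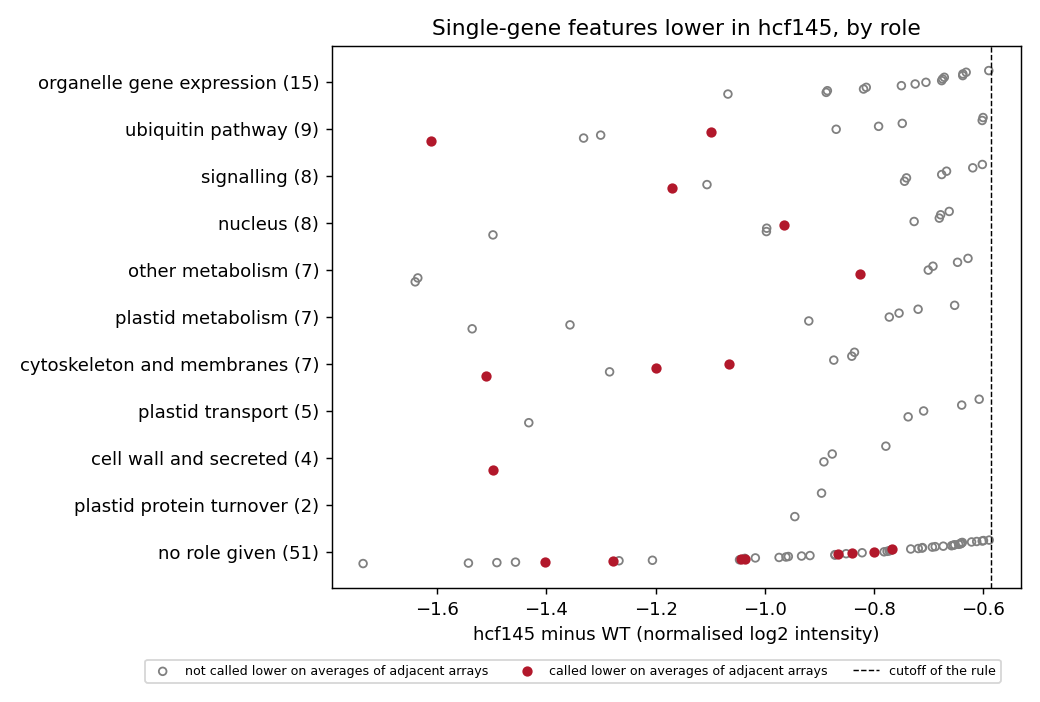
Each point is 1 of the 123 members, placed by its difference between hcf145 and WT in normalised log2 intensity (horizontal axis) and by the role given to its gene (rows, with the number of members). Filled points are the 17 members called lower on the averages of adjacent arrays, and the dashed line is the cutoff of 1.5-fold, to the left of which all points lie.

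Groups did not overlap on the normalised scale for 6 of the 101 members measured on all 20 arrays, where 2.08% of all features measured on all arrays were lower in hcf145 without overlap. These 6 were AT4G31470, AT4G14330, CCL, AT2G03390, AT4G30150 and AT4G13680, and all were also called on the averages of adjacent arrays. In the intensities as deposited 13 members did not overlap, against 3.05% of those features. On the averages, 26 of the 121 members with all 10 values did not overlap, against 5.37% of all such features.

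AT4G31470 encodes a secreted protein of the pathogenesis-related 1-like family, a group best known from defence. Its intensity was 0.819 at the lowest, 1.08 at the median and 1.49 at the highest on hcf145 arrays, against 2.58, 3.0 and 4.60 on WT arrays. Every hcf145 array thus lay below every WT array, and the gene was 2.83-fold lower in hcf145 (log2 difference -1.50). The difference stayed between -1.54 and -1.46 whichever array was left out.

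CCL (AT3G26740, CCR-like), a gene whose transcript is known to be short-lived and under the circadian clock, had the highest WT intensity of the members. Its intensity was 8.67 at the lowest, 10.1 at the median and 12.5 at the highest on hcf145 arrays, against 15.9, 19.2 and 22.8 on WT arrays. The groups were again apart, with a 1.79-fold lower level in hcf145 (log2 difference -0.84).

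AT4G14330 encodes a kinesin, a motor protein found on the phragmoplast that builds the new wall in dividing cells. It stood at 0.0675, 0.207 and 0.462 (lowest, median, highest) on hcf145 arrays, against 0.414, 0.698 and 0.919 on WT arrays, a 2.85-fold lower level in hcf145. The intensities as deposited overlapped slightly, while the normalised values did not.

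AT2G03390, AT4G30150 and AT4G13680, for which no role is given here, were between 1.70-fold and 1.82-fold lower in hcf145. AT4G13680 stood at 0.465, 0.678 and 0.961 on hcf145 arrays, against 1.12, 1.31 and 1.56 on WT arrays. AT2G03390 stood at 0.224, 0.336 and 0.436 on hcf145 arrays, against 0.527, 0.731 and 0.917 on WT arrays. In both, the hcf145 and WT ranges were separated by a gap. For AT4G30150 the highest hcf145 intensity (0.256) and the lowest WT intensity (0.257) nearly met.

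**Figure D2:**
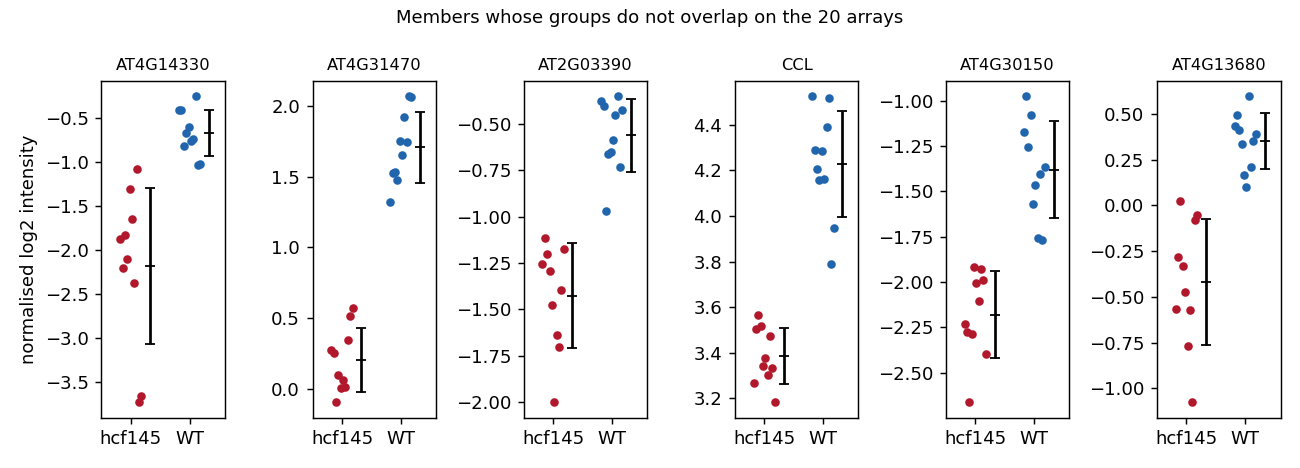
Normalised log2 intensity (vertical axis, own scale per panel) of the 6 members whose groups do not overlap, with 1 point per array, hcf145 left and WT right in each panel, and the mean ± SD of 10 arrays beside the points. In each panel all 10 hcf145 arrays lie below all 10 WT arrays.

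A role was given to 72 members from general knowledge of the gene or its family, and 51 were left without one. By the same knowledge 15 members act in the plastid, 10 belong to families of organelle RNA or ribosomal proteins whose members act in plastids or mitochondria, 1 acts in the mitochondrion, 6 in the nucleus, 3 are secreted and 2 are cytosolic, while 86 were not assigned. The shares among the other features of the array were not determined, so these counts say nothing about whether plastid genes are overrepresented. Calls by role below stand beside 61.8% of all members on the 20 arrays and 13.8% on the averages. Since the same difference chose the members, nothing is read from differences between roles. Calls by family stand beside 17.4% of the 627 features called lower on the 20 arrays and 3.51% on the averages. Every family counted below holds members and was listed with earlier results known, so nothing is read from its share either.

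Of 7 members with a role in plastid metabolism, 4 were called lower on the 20 arrays and 0 on the averages. HEMA3 (AT2G31250), a glutamyl-tRNA reductase, the kind of enzyme that begins the synthesis of chlorophyll and haem, had intensities of 0.535, 0.838 and 1.24 (lowest, median, highest) on hcf145 arrays, against 1.07, 1.52 and 2.49 on WT arrays, and was 1.65-fold lower in hcf145 with overlap between the groups. AT5G22620, which encodes a phosphatase that removes a sugar phosphate inhibitor of Rubisco, had the largest difference of the 7, at -1.54. It stood at 0.0275, 0.107 and 0.325 on hcf145 arrays, against 0.251, 0.359 and 0.707 on WT arrays. Its averages of adjacent arrays did not overlap, although it was not called on them.

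Lipid and pigment genes were also among the 7. CHL (AT3G47860), a lipocalin of the chloroplast that protects thylakoid lipids, stood at 0.0653, 0.157 and 0.393 on hcf145 arrays, against 0.245, 0.349 and 0.424 on WT arrays. Z-ISO (AT1G10830), an isomerase of carotenoid synthesis, was at -0.92, but without hcf145 array 8, where its intensity was 0.00894, the difference was -0.46, and its group medians differed by -0.18. AT3G56130, related to the biotin carrier of plastid fatty acid synthesis and listed at 0 on 1 hcf145 array, was at -1.36 with all arrays and at -0.37 without hcf145 array 2. Both values thus rest largely on 1 array.

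AT5G09820 and AT5G19940 encode fibrillins, lipid-binding proteins of plastids, and were 1.71-fold and 1.57-fold lower in hcf145. AT5G19940, listed at 0 on 1 hcf145 array, was at -0.65, or -0.40 without hcf145 array 4, and was not called. The array held 3 other fibrillin genes as single-gene features, all with positive differences: AT1G51110 at 0.28, AT2G35490 at 0.50 and AT2G46910 at 0.63, of which AT2G46910 was called higher on the 20 arrays. Of the 5 fibrillins, then, 1 was called lower, 1 higher and 3 neither, with a median of 0.28.

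Of the 5 members that encode plastid transporters, AT5G17630 exchanges pentose phosphates with inorganic phosphate. It stood at 0.898, 2.31 and 3.10 (lowest, median, highest) on hcf145 arrays, against 0.856, 4.27 and 5.16 on WT arrays. The overlap came from WT arrays 9 and 10 (0.996 and 0.856), while the other WT arrays, from 3.48 upward, lay above every hcf145 array. The log2 difference was -0.61 over all arrays, -0.87 over arrays 1 to 8 and 0.43 over arrays 9 and 10. LrgB (AT1G32080), the translocator of glycolate and glycerate in photorespiration, was 1.63-fold lower in hcf145, and AT2G32040, a folate transporter, was 1.56-fold lower; these 2 were called lower on the 20 arrays and 0 of the 5 on the averages.

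For AT2G32040 the intensities were 0.139, 0.318 and 0.444 on hcf145 arrays, against 0.421, 0.562 and 0.833 on WT arrays, which overlap little. AT3G25410, of the bile acid and sodium symporter family, had the largest difference of the transporters, at -1.43, at intensities of 0.113 ± 0.0933 in hcf145 and 0.256 ± 0.0762 in WT (SD, n = 10 each). The sugar transporter AT5G59250 was at -0.74 with all arrays but at -0.02 without hcf145 array 8, where it stood at 0.000861, and its group medians differed by -0.09.

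Members that act on proteins of the thylakoid were SPPA (AT1G73990), a light-induced serine protease, and AT5G46390, of the family of C-terminal processing peptidases. SPPA stood at 0.0431, 0.106 and 0.275 on hcf145 arrays, against 0.0725, 0.269 and 0.448 on WT arrays. AT5G46390 stood at 0.0604, 0.361 and 0.736 on hcf145 arrays, against 0.186, 0.711 and 0.978 on WT arrays. Both were about 1.9-fold lower in hcf145 by the mean (1.93-fold and 1.86-fold), neither was called, and the groups overlapped widely.

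The 15 members with a role in organelle gene expression had differences of modest size, with a median of -0.70. Limma called 8 of them on the 20 arrays and 0 on the averages. AT4G31930, of a family of mitochondrial matrix proteins, had the largest, at -1.07, with intensities of 0.0472, 0.366 and 0.618 on hcf145 arrays against 0.521, 0.850 and 1.06 on WT arrays. The ribosomal protein gene AT1G24240, listed at 0 on 1 hcf145 array, was at -0.89 but at -0.08 without hcf145 array 6.

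The mTERF family, with 4 members here, binds nucleic acid in plastids and mitochondria and acts in organelle transcription and RNA processing. Their differences were close together: AT3G18870 at -0.72, AT3G46950 at -0.70, AT1G62010 at -0.64 and AT1G61990 at -0.64. AT1G61990 and AT1G62010 are near neighbours with 1 protein-coding gene between them and belong to a cluster of related mTERF genes, and whether their features detect each other's transcripts was not tested. Of the 8 mTERF genes measured as single-gene features, 5 were called lower, 1 higher and 2 neither on the 20 arrays, and 0 on the averages. Over the 627 features 17.4% were called lower on the 20 arrays and 3.51% on the averages. The gene called higher was AT5G55580, at 0.83 and with mean intensities of 1.89 in hcf145 and 1.11 in WT.

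Pentatricopeptide repeat proteins bind single organelle transcripts. Of 20 measured genes for them, limma called 9 lower, 1 higher (AT4G14050, at 0.64) and 10 neither on the 20 arrays. On the averages it called 2 lower, AT2G17670 and CRR21, and the median difference was -0.51. AT2G17670 and CRR21, and also AT5G15280, OTP70 and OTP85, called lower on the 20 arrays, are on the list left out by name and are not members. Over the 627 features 17.4% were called lower on the 20 arrays and 3.51% on the averages. The 5 members lay between -0.82 and -0.59: AT2G46050, AT2G30100, AT3G49740, AT3G22150 and AT5G39980. AT3G49740 and AT3G22150 were called lower on the 20 arrays. AT5G39980, at -0.59, was at -0.29 without hcf145 array 9, but WT arrays 9 and 10 were also its lowest in WT. Over arrays 1 to 8 of both groups it was at -0.60, and its group medians differed by -0.76.

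AT2G25870, which encodes a YbeY-type ribonuclease of chloroplast ribosomal RNA maturation, was the 1 member whose gene was also the sole gene of another feature, and the 2 features went opposite ways. On the member feature the intensities were 0.112, 0.366 and 0.540 on hcf145 arrays, against 0.289, 0.806 and 0.986 on WT arrays, a difference of -0.89. On the other feature they were 0.177, 0.452 and 1.18 on hcf145 arrays, against 0.197, 0.300 and 0.430 on WT arrays, a difference of 0.96, which limma called higher on the 20 arrays but not on the averages. The direction of this gene is therefore not settled by the array.

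The rule had not used features annotated with several genes. Of the features tested, 12 list the gene of a member together with other genes. Their differences ran from -1.45 to 0.84 with a median of -0.27, and 7 of the 12 were below 0. Limma called 2 of them lower (16.7%, against 15.9% of all features) and 2 higher on the 20 arrays, where 13.2% of all features were called higher, and 1 lower on the averages. Signal on these features can come from any of their genes.

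**Figure D3:**
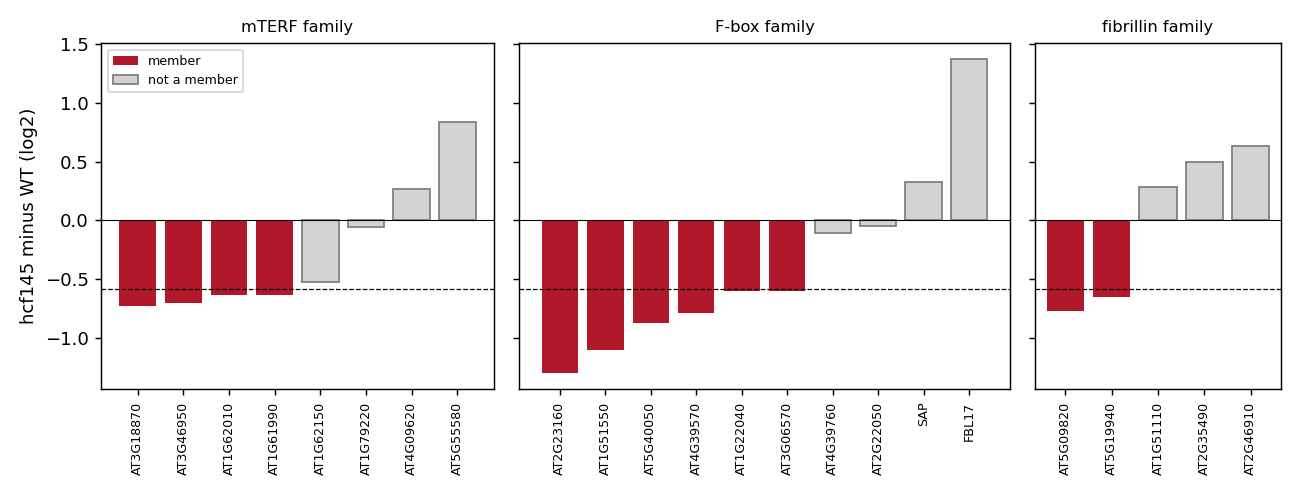
Difference between hcf145 and WT in normalised log2 intensity (bars, from 0) for every single-gene feature of the rule in the mTERF, F-box and fibrillin families, with members in red and other genes in grey; the dashed line is the cutoff of 1.5-fold. The families hold members beside genes with positive differences, up to 0.83, 1.37 and 0.63.

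In the ubiquitin pathway, which tags proteins for degradation, 7 of 9 members were called lower on the 20 arrays and 2 on the averages. AT5G01960, a RING/U-box protein, was 3.06-fold lower in hcf145, at 0.0138, 0.0880 and 0.195 on hcf145 arrays against 0.242, 0.290 and 0.509 on WT arrays. The deposited intensities did not overlap, but the normalised values did. AT1G51550, a kelch-type F-box protein, stood at 0.0873, 0.224 and 0.504 on hcf145 arrays, against 0.373, 0.582 and 0.751 on WT arrays, a 2.14-fold lower level in hcf145. Both were called on the averages.

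F-box proteins choose the target of a ubiquitin ligase. Members made up 123 of the 627 features of the rule, and 6 of the 10 genes listed as F-box from general knowledge. The family was listed with its members known, so nothing is read from this share. Beside AT1G51550 the F-box members were AT2G23160 (-1.30), AT5G40050 (-0.87), AT4G39570 (-0.79), AT1G22040 (-0.60) and AT3G06570 (-0.60). AT2G23160 was at -0.94 without hcf145 array 7. AT3G06570 is the 1 member whose sign turned when an array was left out, at 0.06 without hcf145 array 2. Over the 10 genes, limma called 5 lower, 1 higher (FBL17, at 1.37) and 4 neither on the 20 arrays, with a median of -0.60. On the averages it called 1 lower. Over the 627 features 17.4% were called lower on the 20 arrays and 3.51% on the averages.

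AT5G40140, a U-box protein with armadillo repeats, had 0.284, 0.597 and 0.844 on hcf145 arrays, against 0.871, 1.05 and 1.29 on WT arrays. Its deposited intensities thus did not overlap, but its normalised values did. AT2G27630, related to ubiquitin-specific proteases, was at -1.33 on all arrays with 2 zeros in hcf145, and at -0.88 without hcf145 array 4.

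Of 8 members with a role in the nucleus, 6 were called lower on the 20 arrays and 1 on the averages. That 1 was AT5G02850, a subunit of the Mediator complex that links transcription factors to RNA polymerase, at 0.0464, 0.153 and 0.222 on hcf145 arrays against 0.180, 0.355 and 0.486 on WT arrays. The transcription factors were AT5G61470 (C2H2 zinc finger, -1.50), AT1G19490 (bZIP, -1.0) and AT2G37000 (TCP family, -0.68). AT5G61470, listed at 0 on 1 hcf145 array, stood at 0.319 ± 0.311 in hcf145 and 0.897 ± 0.398 in WT (SD, n = 10 each). TCP15, the other TCP gene measured, was at 0.11.

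DNA end processing was represented by AT3G14890, a phosphatase that cleans broken DNA ends, and APTX (AT5G01310), which resembles aprataxin and removes nucleotides left by failed ligation. AT3G14890 was 2.0-fold lower in hcf145, at 0.151 ± 0.0923 in hcf145 and 0.346 ± 0.119 in WT (SD, n = 10 each). APTX, listed at 0 on 1 hcf145 array, was at -0.73 and was not called. The APTX difference was -0.24 without hcf145 array 10, but WT arrays 9 and 10 (0.153 and 0.145) were also its lowest in WT. Over arrays 1 to 8 of both groups it was -0.54, and the group medians differed by -0.67.

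Signalling genes gave 8 members, of which 4 were called lower on the 20 arrays and 1 on the averages. AT5G40030, a protein kinase, was the called one, at 0.167, 0.401 and 0.722 on hcf145 arrays against 0.574, 0.958 and 1.25 on WT arrays, 2.25-fold lower in hcf145. AT3G44610, an AGC-type kinase, differed by -1.11 with overlap. ATSIK (AT3G08760), a kinase, stood at 0.981, 1.59 and 3.43 on hcf145 arrays, against 1.76, 3.20 and 4.07 on WT arrays. CML41, a calmodulin-like calcium sensor, was 1.67-fold lower in hcf145. The kinase AT1G72540, at -0.74, was at -0.41 without hcf145 array 10, and iqd32, a calmodulin-binding protein at -0.62, was at -0.37 without hcf145 array 8.

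Of the 11 protein kinase genes measured, 4 were members, and limma called 2 lower, 1 higher and 8 neither on the 20 arrays, with a median of -0.20. AT2G39360, a receptor-like kinase, was the 1 called higher, at 0.42.

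Of 7 members with roles at the cytoskeleton or in membranes, 6 were called lower on the 20 arrays and 3 on the averages: the kinesin AT4G14330, AT1G05340 and AT2G29870. AT1G05340, a small cysteine-rich membrane protein linked with stress tolerance, was 2.30-fold lower in hcf145, with 1 array at 0. AT2G29870, which resembles aquaporins, stood at 0.232, 0.410 and 0.666 on hcf145 arrays, against 0.570, 1.08 and 1.32 on WT arrays. AT1G58230, a BEACH-domain protein of membrane traffic, was at -1.28. PRA1.B6, a prenylated RAB acceptor of vesicle traffic, was at -0.84 and not called, while its relative PRA1.B3 was at 0.64 and not called either.

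Besides AT4G31470, the members of the cell wall and secreted group were AT4G38040, AT5G62360 and AT1G30700, and all 4 were called lower on the 20 arrays. AT5G62360, of the family that inhibits invertases and pectin methylesterases, stood at 0.289, 0.404 and 0.620 on hcf145 arrays, against 0.436, 0.960 and 1.35 on WT arrays. AT1G30700, an oxidase of the berberine-bridge family, stood at 0.442, 1.0 and 1.24 on hcf145 arrays, against 1.24, 1.54 and 2.10 on WT arrays, with the ranges meeting at 1.24. AT4G38040, a glycosyltransferase of the exostosin family, was 1.86-fold lower in hcf145.

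Among 7 members with other metabolic roles, 4 were called lower on the 20 arrays and 1 on the averages. That 1 was AT2G35390, a phosphoribosyl pyrophosphate synthetase, the enzyme that activates ribose phosphate for nucleotide and histidine synthesis. Its intensities were 0.206, 0.361 and 0.790 on hcf145 arrays, against 0.694, 0.784 and 0.979 on WT arrays. A related synthetase gene, AT2G44530, was at -0.69, with 2 zeros in hcf145, and was not called. ATSPS4F (AT4G10120), a sucrose phosphate synthase, stood at 0.955, 1.29 and 1.66 on hcf145 arrays, against 1.66, 2.14 and 2.64 on WT arrays, and AT4G17260, a lactate dehydrogenase, was 1.63-fold lower in hcf145.

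The copper amine oxidase AT2G42490 (-1.64) and AT4G26770, an enzyme of phospholipid precursor synthesis (-1.64), had larger differences but were not called. AT2G42490, listed at 0 on 1 hcf145 array, was at -1.02 without hcf145 array 1, and AT4G26770 was listed at 0 on 2 hcf145 arrays.

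Of the 51 members with no role given, 31 were called lower on the 20 arrays and 8 on the averages. AT1G53260 had the largest difference of all members, at -1.74, with 0.00351, 0.132 and 0.202 on hcf145 arrays against 0.204, 0.308 and 0.431 on WT arrays. The deposited intensities did not overlap, but the normalised values did, and it was not called on the averages. Its difference was -1.22 without hcf145 array 4, which stood at 0.00351, and its group medians differed by -0.80. AT3G20490 was 2.64-fold lower in hcf145, at 0.0593, 0.188 and 0.404 on hcf145 arrays against 0.393, 0.557 and 0.857 on WT arrays. AT1G21660 was 2.43-fold lower, at 0.523, 0.699 and 1.46 on hcf145 arrays against 1.61, 1.94 and 3.50 on WT arrays. Its deposited intensities did not overlap, but its normalised values did. Both AT3G20490 and AT1G21660 were called on the averages.

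Other large differences in this group were moved by over 1.5 times by 1 array each and were not called, though each stayed past the cutoff without that array. AT3G02030 was at -1.54, or -0.77 without hcf145 array 8. AT5G41960 was at -1.49, or -0.98 without hcf145 array 8, and AT5G53080 was at -1.46, or -0.67 without hcf145 array 3. AT5G53080 was listed at 0 on 2 arrays of each group. Of the members with high WT intensities, AT5G46560 (3.46 in hcf145 and 5.58 in WT) and AT3G06870 (2.20 in hcf145 and 4.38 in WT) differed by -0.92 and -0.96, and AT5G42680 by -0.73; of these, AT3G06870 and AT5G42680 were called on the 20 arrays. Over arrays 1 to 8 AT5G46560 was at -0.45 and AT3G06870 at -0.58, against -2.79 and -2.45 over arrays 9 and 10.

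**Figure D4:**
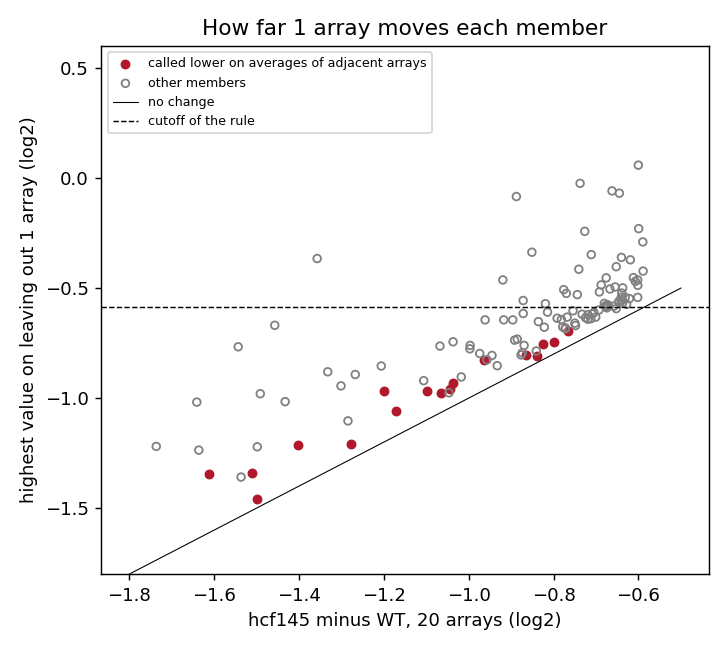
For each of the 123 members, the difference between hcf145 and WT in normalised log2 intensity on all 20 arrays (horizontal axis) against the highest value obtained on leaving out 1 array (vertical axis). Filled points, the 17 members called on the averages of adjacent arrays, all stay below the dashed cutoff of 1.5-fold, while 48 other members lie above it.

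Arrays were left out in turn. In all 20 such fits 75 members stayed at or under the cutoff, while 48 passed above it in at least 1 fit, on leaving out an hcf145 array for 45 of them and a WT array for 3. A single array moved 23 members by over 1.5 times on the log2 scale, and 0 of these were called on the 20 arrays. When the group medians were compared in place of the means, 87 members differed by the cutoff or more, and 1, AT3G56500, had a difference of medians above 0 (0.25).

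The members did not stand equally low on all arrays. Relative to each member's WT mean, the median over members was lowest on hcf145 arrays 9 and 10 (-0.94 each) and highest among hcf145 arrays on array 1 (-0.44). In WT it was highest on arrays 1 and 2 (0.30 each) and lowest on arrays 9 and 10 (-0.16 and -0.12). The hcf145 and WT medians therefore did not overlap, which the selection of the members brings about. Over the 627 features the same median stayed between -0.06 and 0.11 on every array. The members did not all follow their median: over arrays 9 and 10, 21 of the 123 were higher in hcf145 than in WT. With adjacent hcf145 arrays set against the same-numbered WT arrays, 77 members were lower in hcf145 in all 5 pairs.

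Leaving out arrays 9 and 10 of both groups kept 101 of the 123 members at or under the cutoff, and the members' median was -0.86 over arrays 1 to 8. The difference came closer to 0 by over 1.5 times for 15 members and went farther from 0 by as much for 8. Besides AT5G46560 and AT3G06870, the named genes that came closer were SPPA (-0.54), AT5G46390 (-0.48), AT2G46050 (-0.46), AT2G30100 (-0.26), CML41 (-0.44), AT1G72540 (-0.45), ATSIK (-0.40) and AT5G06930 (-0.20). Those that went farther were AT5G19940 (-0.99), iqd32 (-1.0) and AT3G06570 (-1.03), which over arrays 9 and 10 alone were at 0.57, 0.89 and 1.12. Of all 13, 0 were called on the averages.

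**Figure D5:**
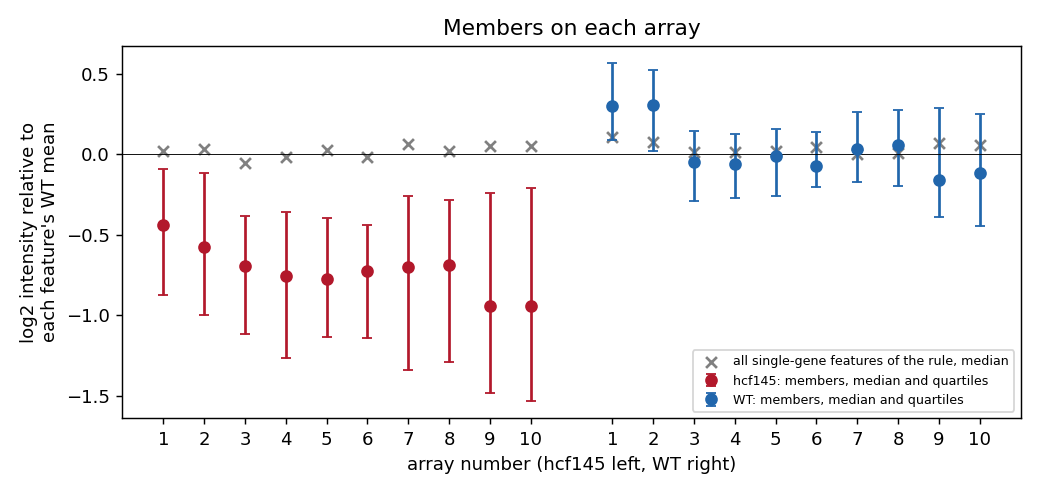
Median and quartiles over the 123 members of the normalised log2 intensity relative to each member's WT mean (vertical axis), for each array by number (horizontal axis), hcf145 left and WT right, with crosses for the median of all 627 features of the rule. Members' medians lie between -0.94 and -0.44 on hcf145 arrays and between -0.16 and 0.30 on WT arrays.

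The size of the differences depended on the scaling. In the intensities as deposited all 123 members were lower in hcf145, with a median of -1.09, but the median over all features tested was itself -0.32 there, against -0.05 after quantile normalisation. With each array centred on its median, 109 of the 123 members stayed at or under the cutoff. After a pseudocount of 0.105, which shrinks differences of dim features, 58 did.

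Members lay on all 5 chromosomes by their locus tags. Chromosome 5 held 35 of them (of 125 single-gene features of the rule) and chromosome 4 held 14 (of 115), with 26 of 153 on chromosome 1, 20 of 117 on chromosome 2 and 28 of 116 on chromosome 3.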

How the data were processed

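Total RNA of 10 hcf145 and 10 WT arrays was measured, with groups and array numbers from the sample titles. The authors deposited 1 table of linear intensity values with 3439 features; the unit was read from the values, and the sources used here do not give their scaling. Zeros were set missing, values taken to log2 and quantile normalised over the 20 arrays, and features with fewer than 5 values in a group left out, leaving 3287. Differences were fitted with limma 3.58.1 in R 4.3.3 (lmFit and eBayes with 1 term for group, two-sided tests and Benjamini-Hochberg adjustment), which was tested on simulated data.

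By the platform annotation 692 features have 1 gene, 870 several genes and 1877 no gene. Of the 692, 690 matched RefSeq (assembly TAIR10.1, used for names and gene order). A gene's features were not averaged. The tables hold no gene descriptions: only 34 of the 627 features have a telling word in a symbol or synonym, so roles, localisation and family lists come from general knowledge and replace the planned word search. Promoter and protein sequences were not used here.

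The members, lists and tests were chosen with earlier results of these data known. Named were the 12 largest differences, the 8 brightest members in WT, members without overlap, the 4 largest differences per role, 3 features on each side of the cutoff, and others chosen after their values were seen. No p is given for a member. P-values cover the spread between these arrays alone, and that spread may be technical. Alternatives were the scaling, zeros, filters, adjacent arrays averaged or as a random block, the array number as a block, an intensity trend, arrays 9 and 10 left out, and each array left out.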

Additional observations from a re-analysis of the deposited data

Results flagged for a closer look

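For 15 genes named by size, brightness, overlap, role or closeness to the cutoff, 1 array stood far from the rest of its group. This happened in 17 of 114 groups checked. Genes named only after their values were seen, such as APTX and AT3G06570, were not checked. Chance gives about 5% of groups when arrays are independent, which adjacent arrays here were not. All values here are on the normalised log2 scale. Low values on hcf145 arrays that lowered the mean were those of AT2G42490 on array 1 (-8.87, others -5.09 to -2.17), AT3G02030 on array 8 (-10.6, others -5.42 to -2.05), AT5G41960 on array 8 (-6.76, others -3.66 to -0.38) and AT5G53080 on array 3 (-9.51, others -4.85 to -2.22). The same held for AT2G23160 on array 7 (-5.87), AT3G56130 on array 2 (-11.7), AT5G59250 on array 8 (-9.53), AT1G24240 on array 6 (-9.94) and AT5G63830 on array 2 (-5.71).

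Also low were AT5G17630 at -0.138 on hcf145 array 10 (others 0.81 to 1.69), AT4G38040 at -2.02 on hcf145 array 6 (others -0.97 to 0.18) and AT2G32040 at -2.64 on hcf145 array 2 (others -1.87 to -1.03). Without those arrays their differences were -0.47, -0.74 and -0.52, against -0.61, -0.89 and -0.64 with all arrays. For AT5G17630 the low was shared by WT arrays 9 and 10 (0.07 and -0.09), so it was not particular to 1 array.

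In WT, AT4G26770 stood at -5.98 on array 5, AT3G02030 at -3.48 on array 5, AT5G59250 at -4.01 on array 8 and AT3G44610 at -3.80 on array 3, each below the other WT arrays. AT5G22620 stood at -0.735 on WT array 2, above the others (-2.05 to -1.38), and its difference was -1.44 without that array.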

How the results depend on the processing

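Of all features, 956 were called on the 20 arrays, and 815 to 987 when each array was left out; 123 single-gene features were at or under the cutoff, and 118 to 130 then; 76 members were called lower, and 63 to 83 then. With adjacent arrays averaged, 243 features and 17 members were called, with them as a random block 425 and 32, averaged without arrays 9 and 10 308 and 20, and averaged after median centring 196 and 12. With the array number as a replicate block, 1239 features and 91 members were called on the 20 arrays, and 500 features and 41 members on the averages. Same-numbered arrays of the groups had correlated deviations of 0.07 to 0.36, not over 0.1 throughout, so they were not treated as pairs. In the values as deposited 206 single-gene features were at or under the cutoff, and with the pseudocount 58 were. On the normalised values of the rule, 31 of the 123 members were at least 2-fold lower. Under the other alternatives these counts stayed within 1.5 times. For the 57 named features, 1960 alternative values moved by less than 1 SD between arrays, 6 by more, and 0 changed sign; AT3G06570, not among those 57, was at 0.06 without hcf145 array 2. The averages without arrays 9 and 10, with a block or after median centring, and normalising after the filter, were added after the data were seen. Dim features carry the least certain differences.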
